A study of Mus musculus with 6 samples.

Results

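The complement genes described here are classical, lectin, alternative and terminal components, with their regulators and receptors, taken by gene symbol from a list of 37 names. Of these, 36 were present among the 20138 genes of the authors' deposited table, and the symbol C1s was skipped, C1s1 being the entry present for that protease. The samples were whole kidneys of 6 mice at postnatal day 35. In 3 of them, Pkd2-miR-214-KO, the genotype was Pkhd1Cre; Pkd2 F/F; miR-214null, and in the other 3, Pkd2-KO, it was Pkhd1Cre; Pkd2 F/F. Every animal thus had Pkd2, the gene for polycystin-2, deleted where the Pkhd1 promoter drives Cre, which is in tubule cells and mainly in collecting ducts. The labels give miR-214, a microRNA cut out of the noncoding transcript Dnm3os, as null, with no cell type named. No kidney with intact Pkd2 was among the 6, so the comparison asks what the loss of miR-214 adds in cystic kidneys.

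Complement is a cascade of plasma and tissue proteins that tags microbes, immune complexes and damaged cells for removal. Recognition molecules (C1q in the classical pathway, mannose-binding lectins, ficolins and collectins in the lectin pathway) activate serine proteases that cleave C4 and C2, while factors B and D run the alternative pathway, and all routes meet at the cleavage of C3 and then of C5. The terminal components assemble a pore in the target membrane, and regulators in plasma and on cell surfaces limit the damage to the host. Most circulating complement is made by the liver, whereas kidney tubules, fibroblasts and macrophages make several components locally.

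All values per gene are fits by the authors over the 3 animals per genotype. Their log2 fold is read here as Pkd2-miR-214-KO over Pkd2-KO, because Mir214, the deleted gene, stands at -7.62 in the authors' deposited table, and Mir214 then cannot check the labels. The standard error (SE) beside each fold is approximate: it is the fold's absolute log2 value over the root of the likelihood ratio, and it also gives the 95% intervals. Mean log2 CPM is the reads of a gene scaled by library size, on a log scale over the libraries, and is not corrected for gene length. The table was analysed here without values per library, the depth is unknown, and whether the groups of animals overlap cannot be told for any gene. Kidney markers were present, with 7 of 7 proximal tubule markers at a mean log2 CPM of 5.57 to 11.3 in the authors' deposited table. In these bulk samples fewer cells of a type and less RNA per cell cannot be told apart.

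The largest log2 folds among the complement genes were those of Hc, Vtn, C8b and Masp2, all expressed chiefly in the liver and all higher in Pkd2-miR-214-KO kidneys. Of the members not classed here as liver-made, all but Fcna had log2 folds between -0.65 and 0.74 in the authors' deposited table. None of the 36 members passed an adjusted p under 0.05 in the authors' deposited table, against 25 of all 20138 genes (0.124%). Without adjustment 7 of 36 had a p under 0.05 in the authors' deposited table, against 970 of all genes (4.82%). These 7 were Vtn, Hc, Masp2, Cd55, Fcna, Masp1 and C8b, and all were higher in Pkd2-miR-214-KO, a direction with unadjusted p under 0.05 in 3.1% of all genes, against 1.71% in the lower direction.

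The 7 genes lie on 5 chromosomes in GENCODE M21: Vtn on chromosome 11 (78499091 to 78502324), Hc and Fcna on chromosome 2 (34983331 to 35061438 and 25624666 to 25628030), Masp2 and C8b on chromosome 4 (148602554 to 148615499 and 104766317 to 104804548), Cd55 on chromosome 1 (130439027 to 130462744) and Masp1 on chromosome 16 (23449417 to 23520815).

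Positive log2 folds were counted for 29 of the 36 members in the authors' deposited table, against 49.8% of all genes. The median log2 fold was 0.33 over the members and 0.00 over all genes in the authors' deposited table. The 11 members classed here as made chiefly by the liver were Hc, C6, C8a, C8b, C8g, C9, Mbl1, Mbl2, Masp2, C4bp and Vtn. They had a median of 1.81, with 11 positive folds, in the authors' deposited table. The other 25 members had a median of 0.16, with 18 positive and 7 negative folds, in the authors' deposited table. These 25 include C3, C4b, C2, Cfb, Cfi, Serping1 and Masp1, which the liver makes too. Their log2 folds ran from -0.004 for Cfb to 0.74 for C4b. The class rests on no measurement made here, and it was drawn with earlier results of these data known. A log2 fold above 1 was reached by 8 of the 36 members, 7 of them liver-made, and by 6.77% of all genes in the authors' deposited table. Such folds are commoner at low expression. They were reached by 1364 of all 20138 genes but by only 200 of the 14520 with a mean log2 CPM of at least 0. The liver-made members had mean log2 CPM values of -2.06 to 1.70, with 5 of 11 under 0. The difference between the liver-made and the other members was not tested, for want of values per library. When the liver-made members were left out, 3 of 25 had an unadjusted p under 0.05 (Cd55, Fcna and Masp1), against 4.82% of all genes. The count was 2 of 24 when Fcna, a gene of liver and spleen macrophages, was left out too.

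**Figure D1:**
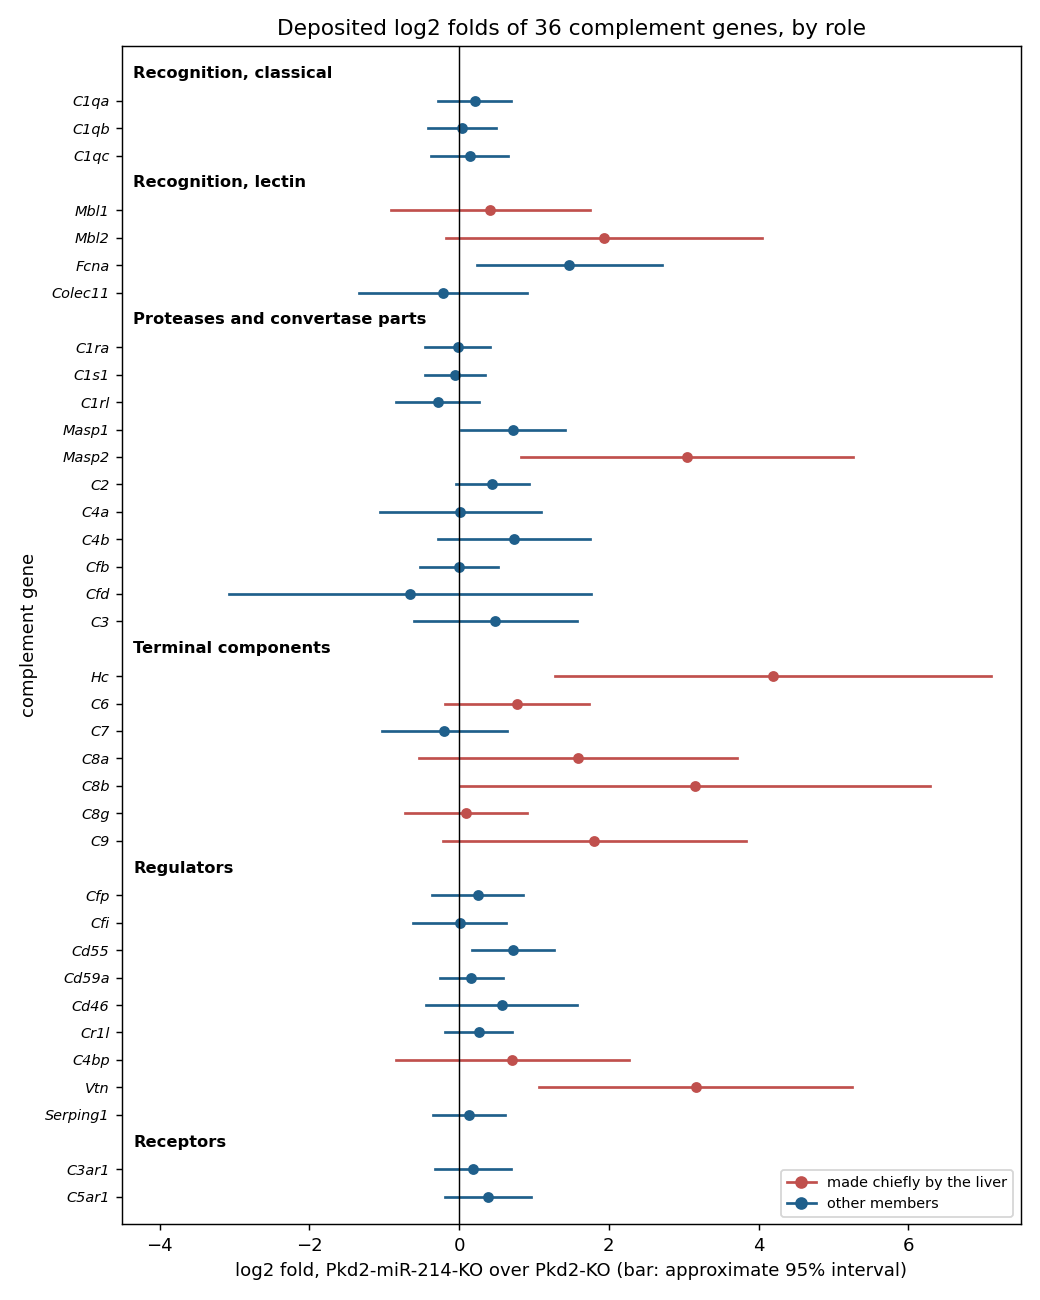
Log2 fold of each of the 36 complement genes (points, Pkd2-miR-214-KO over Pkd2-KO) with its approximate 95% interval (bars), grouped by role. Genes classed as made chiefly by the liver (red) reach log2 folds of 4.19 with wide intervals, and most other members (blue) lie within 1 log2 unit of equality.

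Complement genes were also searched for the sequence that miR-214 could pair with, since the animals differ in that microRNA. The 3' UTR is the part of a transcript after its coding sequence, and microRNAs pair with it mainly through their seed, bases 2 to 8, shown in capitals in the mature RefSeq sequence (GRCm38.p6, chr1:162223438-162223459, plus strand).
mmu-miR-214-3p: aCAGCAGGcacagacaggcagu
The matching 7-base site CCTGCTG occurred in the longest annotated 3' UTR of 8 of 35 members (22.9%) and of 3601 of 16888 protein-coding genes (21.3%), with no C4a entry among the 35. The 8 members with a site were C1rl, Masp1, C6, Cd59a, Cd46, Serping1, C3ar1 and C5ar1. Their median log2 fold was 0.29, against 0.42 for the 27 members without the site in the authors' deposited table. Only C6 of these 8 is classed here as liver-made, a class whose median was 1.81. The other liver-made members are all among the 27, and the difference between the medians was not tested. Masp1 was the member with the most copies, 4 in a 3' UTR of 2965 bases, and the only site-bearing member with an unadjusted p under 0.05. In C5ar1 and Serping1 the site is followed by an A. That A lies opposite the base before the seed, also an A, so it adds no base pair. These sites are shown on the transcribed strand with 8 bases on either side and the site in capitals, at their positions in GENCODE M21 (GRCm38, the assembly of mm10).
Masp1, chr16:23452347-23452369, minus strand: gcccaacaCCTGCTGtatggtca
Masp1, chr16:23451509-23451531, minus strand: aaaattttCCTGCTGtccctaaa
Masp1, chr16:23450733-23450755, minus strand: tgctgtggCCTGCTGcagtgaga
Masp1, chr16:23449967-23449989, minus strand: gctctcttCCTGCTGcctgtgga
C5ar1, chr7:16247041-16247063, minus strand: cacctttaCCTGCTGagtcacat
Serping1, chr2:84765856-84765878, minus strand: aggactttCCTGCTGatgtctga
A match of letters is no measured target. Beside these sites the log2 folds were 0.39 ± 0.29 (SE) for C5ar1, the receptor for the C5a fragment, and 0.13 ± 0.24 for Serping1 in the authors' deposited table. Their intervals ran from 0.881-fold to 1.95-fold for C5ar1 and from 0.787-fold to 1.53-fold for Serping1, and both included equality.

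Among recognition molecules, the 3 chains of C1q, which binds antibody and apoptotic cells and is made chiefly by macrophages, lay near equality. C1qa had a log2 fold of 0.21 ± 0.25 (SE), C1qb 0.04 ± 0.23 and C1qc 0.14 ± 0.26 in the authors' deposited table. The 3 genes lie side by side within 18.7 kb of chromosome 4, and their intervals ran from -0.42 to 0.70 at the extremes, which leaves out a doubling or a halving of C1q transcripts within this approximation. Pan-macrophage markers stood beside them with a median of -0.03 over 13 genes (6 positive and 7 negative) in the authors' deposited table.

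Lectin pathway recognition genes had larger and less certain values. Fcna, ficolin A, which in mice is made by liver and spleen macrophages, had a log2 fold of 1.47 ± 0.63 (unadjusted p = 0.0194, adjusted p = 0.770) in the authors' deposited table, where its mean log2 CPM was 1.45. Mbl2 and Mbl1, the mannose-binding lectins C and A of mouse liver, had 1.94 ± 1.07 and 0.42 ± 0.68 at mean log2 CPM values of -0.83 and -0.96 in the authors' deposited table. Colec11, collectin-11, a lectin that kidney tubules make themselves, had -0.22 ± 0.57 in the authors' deposited table. The intervals of Mbl2, Mbl1 and Colec11 all included 0, and only that of Fcna (1.18-fold to 6.55-fold) did not.

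Recognition molecules activate serine proteases, of which Masp2 had the largest fold. Masp2, the liver-made protease that cleaves C4 and C2 for the lectin pathway, had an 8.26-fold higher fitted value (log2 fold 3.05 ± 1.13, unadjusted p = 0.00707, adjusted p = 0.518) in the authors' deposited table, where its mean log2 CPM was -0.92. Masp1, the lectin pathway protease that activates Masp2, had a log2 fold of 0.72 ± 0.35 (unadjusted p = 0.0416, adjusted p = 0.989) in the authors' deposited table, where its mean log2 CPM was 4.14. The classical pathway proteases had negative folds, with intervals that included 0: C1ra had -0.02 ± 0.22, C1s1 -0.05 ± 0.20 and C1rl, a C1r-like protease, -0.29 ± 0.28 in the authors' deposited table. C1ra and C1s1 have close paralogs, C1rb and C1s2, whose reads could be shared with them. The intervals of C1ra and C1s1 stayed between -0.45 and 0.41, so at this precision a change of 1 log2 unit in either gene lay outside the interval.

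Genes of the C3 convertases had log2 folds between 0.00 and 0.74, with intervals that all included 0, in the authors' deposited table. C2, which supplies the enzyme of the classical and lectin convertase, had a log2 fold of 0.44 ± 0.25 (unadjusted p = 0.0734), and Cfb, its counterpart in the alternative pathway, 0.00 ± 0.26 in the authors' deposited table. C4b, the mouse gene for C4, had 0.74 ± 0.52 and C4a, also known as sex-limited protein, 0.02 ± 0.55 in the authors' deposited table. C4a and C4b are near-identical copies, and how reads were divided between them is not given in the sources used here, so both values are uncertain. C2, Cfb, C4a and C4b all lie within 170 kb of chromosome 17 (34728380 to 34898265), in the major histocompatibility complex. Their intervals overlapped, and differences between them were not tested.

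C3, the component on which all pathways converge, had a log2 fold of 0.48 ± 0.56, an interval of 0.657-fold to 2.97-fold, in the authors' deposited table, where its mean log2 CPM was 9.34. Its SE was 1.85 times the median SE of genes within 0.5 log2 CPM. The same ratio was 2.37 for C4b and 5.83 for Cfd, factor D, the protease that cleaves factor B and a product of fat cells. The log2 fold of Cfd was -0.65 ± 1.23, per the authors' deposited table. The other adipocyte markers had negative folds and like errors: Adipoq had -0.15 ± 1.24, Plin1 -0.79 ± 1.34, Retn -0.60 ± 1.15 and Car3 -0.27 ± 1.11 in the authors' deposited table. The part of fat tissue in the value of Cfd was not tested.

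Terminal components held the largest fold of the members. Hc, the mouse gene for C5, whose fragments attract leukocytes and start the pore, had an 18.3-fold higher fitted value (log2 fold 4.19 ± 1.49, unadjusted p = 0.00479, adjusted p = 0.424) in the authors' deposited table. Its interval ran from 2.43-fold to 137-fold. C8b and C8a, neighbouring genes for the beta and alpha chains of C8 on chromosome 4 (104766317 to 104876398), had log2 folds of 3.15 ± 1.60 (unadjusted p = 0.0492, adjusted p = 1) and 1.59 ± 1.08 in the authors' deposited table. C9, which polymerises into the pore, had 1.81 ± 1.03 at the lowest mean log2 CPM of the members, -2.06, in the authors' deposited table. C6 had 0.77 ± 0.49, C8g, the gamma chain of C8, 0.10 ± 0.42, and C7, which fibroblasts and other local cells also make, -0.20 ± 0.43 in the authors' deposited table. C6, C7 and C9 lie on the same stretch of chromosome 15 (4727175 to 6498751), and their folds had different signs.

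Promoters of the liver-made members were examined because these genes had the larger folds together. Windows from 250 bases before to 50 bases after the start (RefSeq, GRCm38.p6) were given for 28 members, 11 liver-made and 17 others. The letters GTTAAT, the core of the motif bound by HNF1, a factor of liver and kidney epithelium, were found on either strand in 5 of the 11 liver-made members, in 4 of the 17 others and in 8.24% of the 27025 genes with a window. The liver-made members with a match are shown with 12 bases on either side and the match in capitals, ATTAAC being the same motif on the opposite strand.
Hc, chr2:35061469-35061498, minus strand: ctgacattaataATTAACcggagaactaat
C8b, chr4:104766099-104766128, plus strand: tactttacctgtATTAACcctctaaccctg
C8a, chr4:104876488-104876517, minus strand: ccttggttactaGTTAATcacattgaatgg
Vtn, chr11:78498996-78499025, plus strand: aggctcagggagATTAACgggactggctca
C4bp, chr1:130661665-130661694, minus strand: ctgctctagtctGTTAATcattcaccggga
The 4 others were C1ra, C7, Cfp and Cd55, whose log2 folds ranged from -0.20 to 0.72 in the authors' deposited table. Of 9 motifs searched on both strands this was singled out after the counts were seen. A longer HNF1 motif, which contains it, was in 2 of 28 members (Hc and C4bp) and 0.47% of all genes. The C/EBP motif TTNCNNAA was in 13 of 28 and 44.1%, the STAT motif TTCNNNGAA in 6 and 9.55%, and an interferon response element in 4 and 3.99%. TGGACTTTG (HNF4), TTGCGCAA (C/EBP), a longer interferon response element, which overlaps the shorter, and the NF-kB motif were in 0 of the 28 and in 0.555%, 0.207%, 0.259% and 0.174% of all genes.

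Among regulators, Vtn and Cd55 were the genes with an unadjusted p under 0.05. Vtn, vitronectin, a plasma protein that keeps the terminal complex out of membranes, had an 8.96-fold higher fitted value (log2 fold 3.16 ± 1.07, unadjusted p = 0.00300, adjusted p = 0.344) in the authors' deposited table, where its mean log2 CPM was 1.61. It had the smallest p of all members, and it too is made chiefly by the liver. Cd55, decay-accelerating factor, which dissociates C3 convertases on the cell's own surface, had a 1.65-fold higher value with an interval of 1.13-fold to 2.41-fold (unadjusted p = 0.0100, adjusted p = 0.596) in the authors' deposited table. Its mean log2 CPM was 4.73 in the authors' deposited table, and its SE of 0.28 was 1.20 times the median of genes of similar expression. The log2 fold of Cd55, 0.72, stood beside 0.71 for C4bp and 0.57 for Cd46, which had larger SEs of 0.79 and 0.51, in the authors' deposited table. Of the other regulators, Vtn was higher, and Cr1l, Cfp, Cd59a, Serping1 and Cfi lay between 0.01 and 0.26. Differences between regulators were not tested. Daf2, a close neighbour and paralog of Cd55 that could share reads with it, is named after its value was seen. The log2 fold of Daf2 was 0.80 ± 0.93 in the authors' deposited table, where its mean log2 CPM was -3.33.

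The remaining regulators had folds above 0 whose intervals all included equality. Cr1l, or Crry, the main membrane inhibitor of C3 activation in mouse kidney, had a log2 fold of 0.26 ± 0.23, and Cd59a, which blocks the pore, 0.16 ± 0.21 in the authors' deposited table. Cd46, a cofactor for C3b cleavage that mice express mostly in testis, had 0.57 ± 0.51, and C4bp, the liver-made C4b-binding protein, 0.71 ± 0.79 in the authors' deposited table. Serping1, the inhibitor of C1r, C1s and the Masp proteases, had 0.13 ± 0.24, and Cfi, the protease that inactivates C3b and C4b, 0.01 ± 0.32 in the authors' deposited table. Cfp, properdin, the stabiliser of the alternative convertase made by leukocytes, had 0.25 ± 0.31 in the authors' deposited table. The other receptor, C3ar1 for the C3a fragment, had 0.18 ± 0.26 in the authors' deposited table, and with C5ar1 neither anaphylatoxin receptor departed from equality beyond its interval.

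The precision of these fits differed widely between members. Intervals lay between log2 folds of -1 and 1 for 16 of the 36 members, 15 of them not classed as liver-made, and for 57.5% of all genes. These 16 were the C1q chains, C1ra, C1s1, C1rl, C2, Cfb, C8g, Cfp, Cfi, Cd59a, Cr1l, Serping1 and both anaphylatoxin receptors. The SE exceeded the median of genes of similar expression for 32 of 36 members, a comparison added after the values were seen. No share over all genes was computed for it. The ratios were 3.10 for Hc, 2.53 for C8b, 2.50 for Vtn and 1.89 for Masp2, but only 1.01 for Cd59a and 1.02 for C1ra. These SEs come from the fold and the likelihood ratio and are no measured spread among animals. Which animal or genotype contributed to them cannot be told here.

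**Figure D2:**
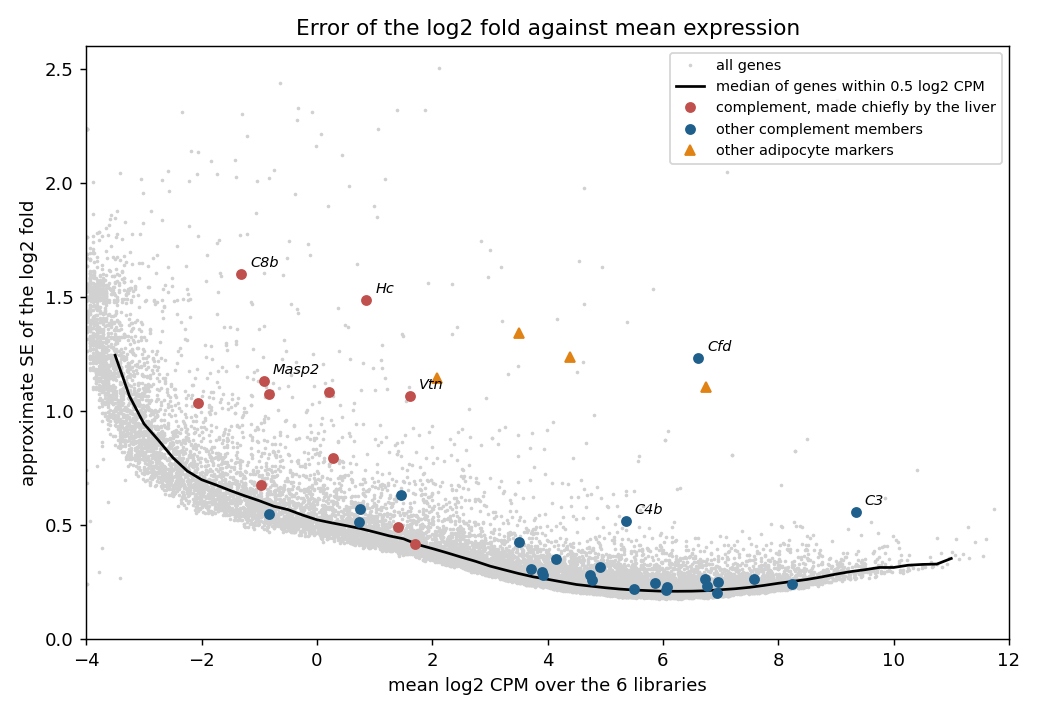
Approximate SE of the log2 fold (vertical axis) against mean log2 CPM (horizontal axis) for all genes (grey, those above the axis limit not drawn), with the running median (line), the complement members and the other adipocyte markers. Hc, C8b, Vtn and Masp2 lie well above the line, and Cfd, with an SE of 1.23, sits among the adipocyte markers.

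**Figure D3:**
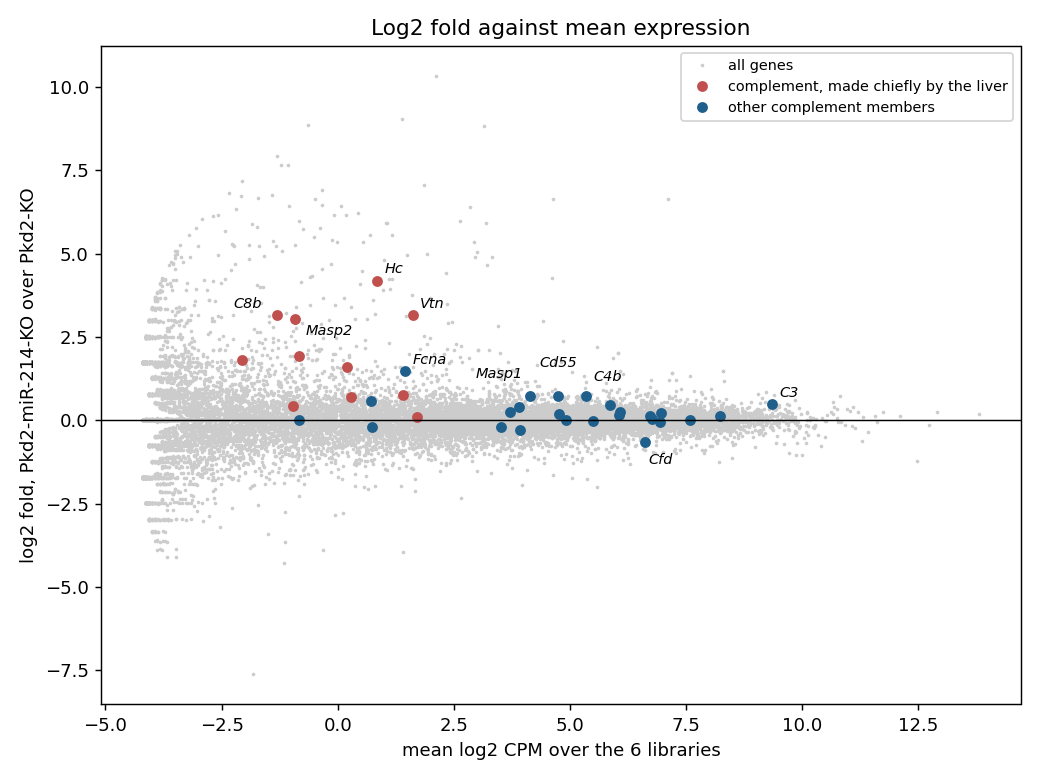
Log2 fold (vertical axis, Pkd2-miR-214-KO over Pkd2-KO) against mean log2 CPM (horizontal axis) for all 20138 genes (grey) and the 36 complement members (coloured). Members with log2 folds above 1 all have a mean log2 CPM under 2, and the others spread along the line of equality up to C3 at 9.34.

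A second list reported here held 30 further genes, some of complement and some only linked to it. Of these, 28 were present, among them pentraxins and the integrin receptors. None of the 28 passed the adjusted threshold, 9 had an unadjusted p under 0.05 (8 higher and 1 lower), 19 had positive folds, and the median log2 fold was 0.33, per the authors' deposited table. Of all genes in the authors' deposited table, 4.82% had an unadjusted p under 0.05 (3.1% higher and 1.71% lower), 49.8% had positive folds, and the median was 0.00. Of the 9, the genes of the pentraxins Apcs and Crp, plasma proteins that bind C1q, had log2 folds of 4.70 ± 1.73 (unadjusted p = 0.00665, adjusted p = 0.509) and 2.46 ± 0.87 (unadjusted p = 0.00470, adjusted p = 0.424), and Cpn2, a subunit of the carboxypeptidase that inactivates anaphylatoxins, 3.04 ± 1.45 in the authors' deposited table. Cr2, the receptor for C3d on B cells, had 3.05 ± 1.01 (unadjusted p = 0.00242, adjusted p = 0.313), beside a median of 3.84 over the 6 B cell markers, which include Cr2, in the authors' deposited table.

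Macrophage genes, a ficolin and integrins made up the rest of the 9. Vsig4, a C3b receptor of tissue macrophages, had a log2 fold of 1.81 ± 0.78, Cd5l, a secreted macrophage protein, 2.25 ± 1.11, and Fcnb, ficolin B of myeloid cells, 3.27 ± 1.66 in the authors' deposited table, where its mean log2 CPM was -3.42. Itgb3, an integrin subunit that binds vitronectin, had 0.79 ± 0.30 (unadjusted p = 0.00948, adjusted p = 0.580), and Itgax, a subunit of complement receptor 4, was the lower gene with -0.75 ± 0.37 (unadjusted p = 0.0396, adjusted p = 0.965) in the authors' deposited table. The next 3 genes are named after their values were seen. Clu, clusterin, an inhibitor of the terminal complex that injured tubules make, had 0.24 ± 0.36 in the authors' deposited table. The integrin chains Itgam and Itgb2 of complement receptor 3 had 0.13 ± 0.22 and -0.13 ± 0.27 in the authors' deposited table.

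**Figure D4:**
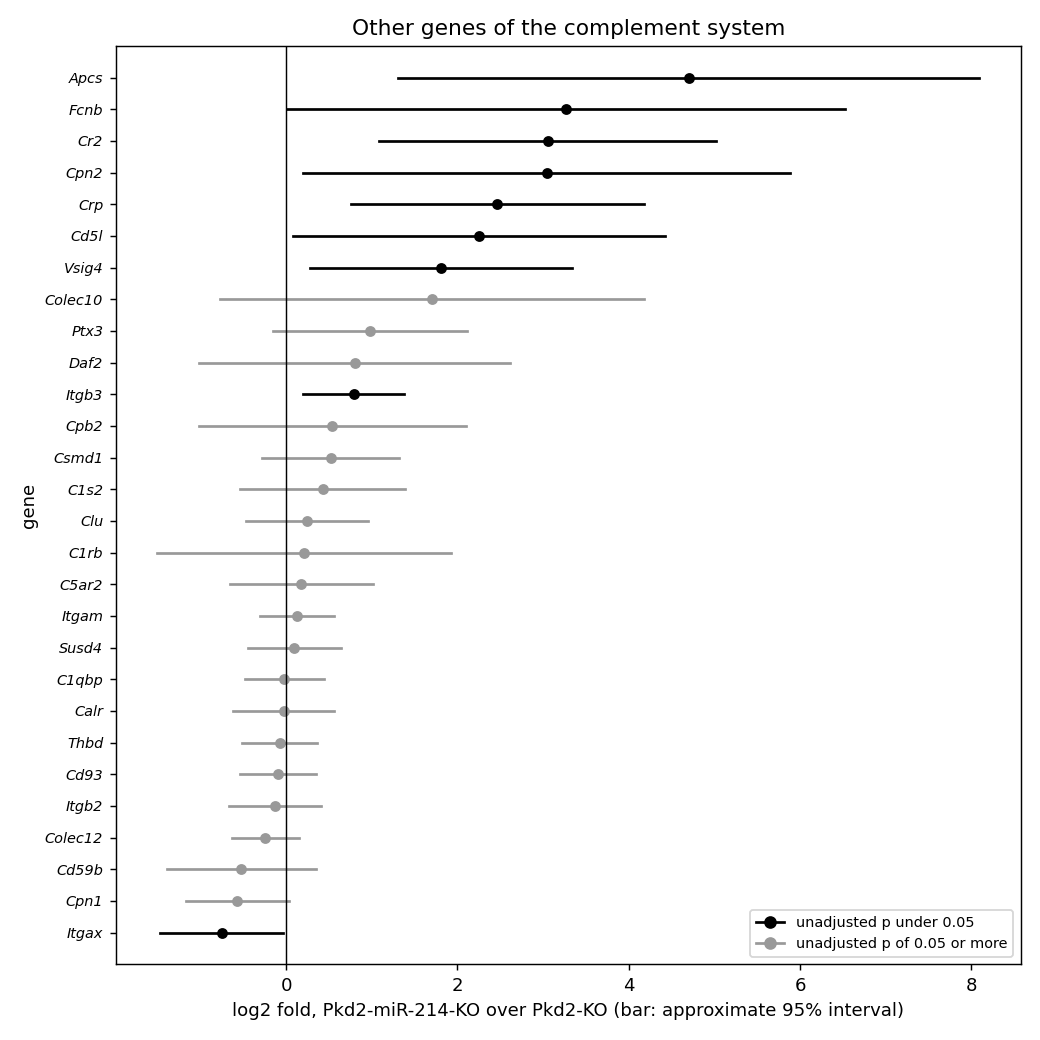
Log2 fold (points, Pkd2-miR-214-KO over Pkd2-KO) and approximate 95% interval (bars) of the 28 genes of the second list, in order of fold. Black marks an unadjusted p under 0.05, reached by 9 genes from Apcs at 4.70 to Itgax at -0.75, and none passed the adjusted threshold.

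The hepatocyte list and the list called liver macrophage had positive folds of very unequal size beside the liver-made members. All 14 hepatocyte markers had positive log2 folds, with a median of 2.72, 10 with an unadjusted p under 0.05 and 0 past the adjusted threshold in the authors' deposited table. Albumin, Alb, had 6.64 ± 2.05, the apolipoprotein genes Apoh and Apoa1 had 4.95 ± 1.33 and 5.92 ± 1.63, and Ambp and Apoa2 had 2.51 ± 0.73 and 2.93 ± 0.85 in the authors' deposited table. The list ran down to 0.19 ± 0.34 for Serpina1a and 0.35 ± 0.38 for Ttr, with 0.93 ± 0.45 for Fgg and 0.95 ± 0.36 for Fga, in the authors' deposited table. All 5 liver macrophage markers were positive as well, with a median of 2.25 in the authors' deposited table. But 2 of them, Vsig4 and Cd5l, are genes of the second list too, and Cd5l is the median. Of the other 3, Marco passed (5.99 ± 1.01, adjusted p = 1.27e-05) while Clec4f, a marker of liver macrophages, had 6.17 ± 2.05 (adjusted p = 0.325) in the authors' deposited table. The mean log2 CPM of Clec4f was only -2.58, and 4 of the 5 markers of this list were under 0. Macrophages of other tissues also express Marco, Timd4, Vsig4 and Cd5l, so the list does not name a source tissue. Hepatocyte markers were at mean log2 CPM values of 0.99 to 7.11 in the authors' deposited table, and none was at 0 over all libraries. The part of liver transcripts in the folds of Hc, Vtn, Masp2, C8b and the other liver-made members was not tested, and their level in each library was not analysed here.

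Neutrophil markers (7 of 8 positive, median 1.60) and B cell markers (6 of 6 positive, median 3.84) had positive medians beside Fcnb and Cr2 in the authors' deposited table. The neutrophil granule gene Ngp had the highest value of its list, 6.63 ± 1.75, while the receptor genes Csf3r and Cxcr2 had the lowest, -0.16 ± 0.32 and 0.11 ± 0.45, in the authors' deposited table. The B cell gene Ms4a1, which encodes CD20, had 4.23 ± 1.14, and neither it nor Ngp passed the adjusted threshold in the authors' deposited table. Fibroblast markers had a median of -0.23 (2 of 7 positive) and proximal tubule markers one of -0.62 (0 of 7 positive) in the authors' deposited table. The fibroblast gene Dcn had 1.18 ± 0.31 (adjusted p = 0.102), and the tubule gene Slc22a12 had -1.24 ± 0.38 (adjusted p = 0.223), in the authors' deposited table.

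Sex is not given in the labels, and C4a is known as an androgen-dependent gene in some mouse strains. Xist, expressed in female cells, had a log2 fold of 10.21 ± 2.36 (adjusted p = 0.0168), while the 4 Y-linked genes examined lay between -0.66 and -0.14 with SEs from 1.40 to 1.63 in the authors' deposited table. Male-biased kidney genes had a median of -0.73 over 4 genes, with -2.00 ± 0.78 for Slc7a13, and female-biased ones -0.52 over 3 genes in the authors' deposited table. The part of sex in any complement fold was not tested and cannot be told apart from genotype here. Pkd2, deleted in tubule cells of both genotypes, had -0.11 ± 0.23 in the authors' deposited table.

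**Figure D5:**
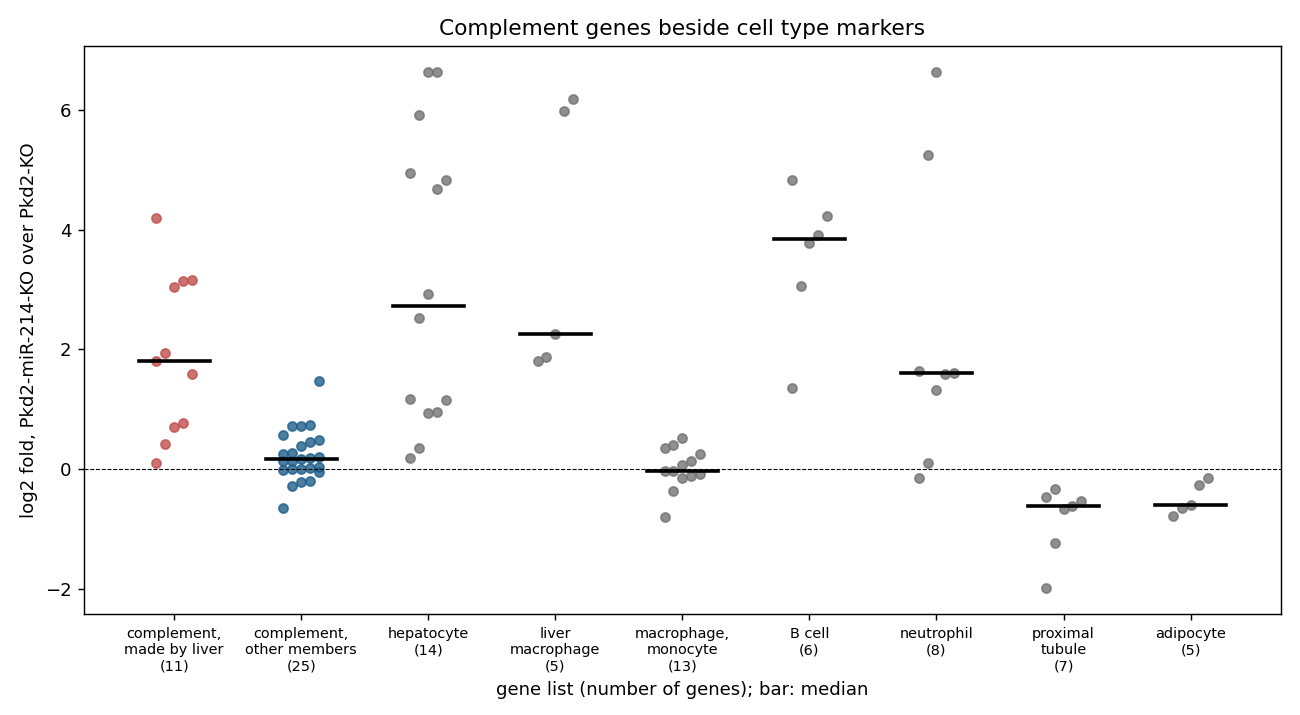
Log2 folds (vertical axis, Pkd2-miR-214-KO over Pkd2-KO) of single genes (points) and their medians (bars) for the complement members, split into those classed as liver-made and the others, and for 7 lists of cell type markers. The liver-made members (median 1.81) and the hepatocyte markers (median 2.72) lie above equality, and the other members (0.16) and pan-macrophage markers (-0.03) lie around it.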

How the data were processed

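Whole-kidney RNA of 6 mice was compared between 2 genotypes. TopHat2 2.0.12, edgeR and the build mm10 are named in the submitters' processing notes, without settings. The authors deposited a single table, whose log2 fold, mean log2 CPM, likelihood ratio (a score), p-value and adjusted p-value per gene are their own edgeR likelihood ratio fits, per the file headers. The labels' protocols name a stranded total RNA kit, and the series text speaks of polyA RNA. Depth, counting, strand use and filters: not given in the sources used here. The chi-square tail of the likelihood ratio and a Benjamini-Hochberg adjustment over all 20138 genes gave the deposited values within 6.25e-15 and 5.10e-14. No model was fitted anew, and the alternatives re-read the deposited likelihood ratios and p-values. SEs and intervals (95%) were computed from fold and likelihood ratio, and the arithmetic was checked on simulated statistics. Those were drawn from the same formula with normal noise and without counts, so the check could not test how well the intervals cover. The SEs and intervals are rough at low counts, where the prior count also enters a fold. Nothing in the labels states that the animals of a genotype are independent litters.

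The members and lists were chosen with earlier results of these data known. All 36 members are named. Further genes first placed on the second list are not reported here, and the list's size and counts leave them out. P-values are given for the members with unadjusted p under 0.05, for C2, and for some of the second list's genes with unadjusted p under 0.05. They are not given for Cpn2, Vsig4, Cd5l and Fcnb. Marker lists are shown by up to 4 genes of smallest p, with Alb and Clec4f as marks of liver and, chosen after their values were seen, the lowest genes of the hepatocyte and neutrophil lists. Positions and 3' UTRs come from GENCODE M21, promoters and microRNAs from RefSeq GRCm38.p6. The tools were scipy 1.17.1, numpy 2.4.6 and pandas 2.3.3 under Python 3.11.15, with matplotlib 3.10.9 for plots.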

Additional observations from a re-analysis of the deposited data

How the results depend on the processing

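No member passed the adjusted threshold when genes with a mean log2 CPM under 0 were left out of the adjustment, at an adjusted p under 0.1, or when the square root of the likelihood ratio was read against a t distribution with 4 degrees of freedom (0 members each). With that t distribution, 2 of 36 members (Hc and Vtn) and 2 of 28 second-list genes kept an unadjusted p under 0.05, against 7 and 9, as did 1.2% of all genes. It also left 0 genes past the adjusted threshold. Of the second-list genes, 4 of 19 with a mean log2 CPM of at least 0 had an unadjusted p under 0.05. Of the members it was 5 of 30, against 4.08% of all genes at that level. Leaving out the liver-made members gave 3 of 25 with an unadjusted p under 0.05 and 18 of 25 positive folds, against 4.82% and 49.8% of all genes. Leaving out Fcna too, an alternative chosen after seeing the data, gave 2 of 24 and 17 of 24. The median log2 fold of the members was 0.23 without low genes, 0.33 when centred, 0.16 without liver-made members and 0.15 without Fcna as well. Sites made of bases 2 to 7 followed by A were in 4 of 35 members (16.7% of all genes), and sites of miR-214-5p, added after seeing the data, in 1 (9.4%). Leaving out single animals was not run, and no paired analysis was possible because values per library were not analysed here. Low read numbers limit Masp2, C8b, C9, Mbl1, Mbl2 and C4a, whose mean log2 CPM is under 0.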
